A study of Mus musculus with 14 samples.

Results

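The endoplasmic reticulum chaperone and folding genes are a set of 35 genes whose products fold, modify, translocate or dispose of proteins in the endoplasmic reticulum (ER). They were taken by gene symbol from a list of names, with no measured value in the rule, and all 35 were measured, by 75 of the 22626 probe sets tested. The list itself was chosen with earlier results of these data known. A gene is represented by its brightest probe set, so that the 35 members stand among 12393 genes, and no filter on low values was applied. A further 1 probe set, which carries the symbols of Sec61b and another gene, was left out.

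Expression was measured on 14 Affymetrix mouse arrays of bone marrow cells sorted as Sca1-positive and cKit-negative. The Instigator hosts carried a BPLER tumour, grown from a transformed human mammary epithelial line (n = 5). The Non-instigator hosts carried a tumour of the human prostate carcinoma line PC3 (n = 5), and the Matrigel hosts carried an implant of basement membrane extract without tumour cells (n = 4). Instigating tumours stimulate otherwise indolent tumour cells at distant sites of the same host. All groups share the sort, and neither strain nor age of the hosts is stated in these sources. The labels do not say that each array is a separate animal, so p-values here reflect only how far these samples spread, part of which can be technical. The labels of Instigator 5 disagree, since its description gives the PC3 tumour. It was kept as Instigator by its title and source, and values with it moved are given for some members, for the member median and for the counts.

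Values are log2 RMA intensities, in which a difference of 1 is a doubling, and levels of different probe sets cannot be set against each other. The pan-leukocyte gene Ptprc lay between 11.09 and 11.91 in Instigator, 11.11 and 11.63 in Non-instigator, and 11.01 and 11.61 in Matrigel arrays. Kit, the receptor the sort selected against, lay between 7.36 and 7.93 in Instigator, 6.82 and 7.97 in Non-instigator, and 7.18 and 8.05 in Matrigel arrays. The gene for Sca1, Ly6a, was not analysed here because the annotation names no probe set for it alone. In sorted bulk samples, fewer cells of a type and less RNA per cell cannot be told apart.

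Proteins bound for the membrane or for secretion enter the ER through the Sec61 channel, lose their signal peptide, and are folded by chaperones while isomerases form and rearrange their disulphide bonds. Misfolded proteins are pulled back into the cytosol and degraded. When unfolded proteins accumulate, the sensors Atf6, Ern1 (IRE1 alpha) and Eif2ak3 (PERK) start the unfolded protein response, which raises transcription of many of these genes. In bone marrow, antibody-secreting plasma cells are known for a very large ER and for high levels of this machinery.

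Many of these genes are known to be induced through the ER stress response element, which ATF6 binds together with NF-Y. It was searched as an exact match in the RefSeq promoters of build GRCm38.p6, from 250 bases before to 50 bases after each gene start. Of the 35 members, 27 had a promoter entry. The ER stress response element, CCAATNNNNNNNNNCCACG on either strand, occurred in 8 of the 27 members (29.6%), against 37 of 27025 genes with a promoter (0.137%). The shorter ER stress response element II, ATTGGNCCACG, occurred in 2 of 27 members (7.41%), Herpud1 and Dnajb11, against 12 genes overall (0.0444%). The 2 motifs did not occur together in a member. A match is a description of the letters and not evidence of binding. The stretches below show the motif in capitals with 15 bases on each side, 5′ to 3′ on the gene's strand, and the match in Dnajb11 lies after the gene start and is not shown.
Hspa5 (chr2:34772010-34772058, + strand): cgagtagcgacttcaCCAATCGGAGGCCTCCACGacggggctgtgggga
Hsp90b1 (chr10:86705518-86705566, - strand): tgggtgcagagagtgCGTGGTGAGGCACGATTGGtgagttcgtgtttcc
Hsp90b1 (chr10:86705623-86705671, - strand): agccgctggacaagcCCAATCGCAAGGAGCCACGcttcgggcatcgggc
Dnajc3 (chr14:118937812-118937860, + strand): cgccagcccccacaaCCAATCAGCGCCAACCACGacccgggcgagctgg
Pdia6 (chr12:17266476-17266524, + strand): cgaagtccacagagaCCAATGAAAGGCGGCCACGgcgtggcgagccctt
Creld2 (chr15:88819505-88819553, + strand): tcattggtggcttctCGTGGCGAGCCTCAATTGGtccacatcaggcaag
Calr (chr8:84847060-84847108, - strand): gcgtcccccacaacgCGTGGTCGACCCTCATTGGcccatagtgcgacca
Canx (chr11:50325785-50325833, - strand): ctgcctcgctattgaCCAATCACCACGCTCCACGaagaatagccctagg
Syvn1 (chr19:6046517-6046565, + strand): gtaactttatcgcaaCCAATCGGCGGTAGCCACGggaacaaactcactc
Herpud1 (chr8:94386362-94386402, + strand): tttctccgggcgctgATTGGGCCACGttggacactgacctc
A longer stretch, the 250 bases before the start of Hspa5 (chr2:34771840-34772089, + strand), shows where the match lies, from base -65 to base -47 relative to the gene start, with the motif again in capitals.
Hspa5 promoter: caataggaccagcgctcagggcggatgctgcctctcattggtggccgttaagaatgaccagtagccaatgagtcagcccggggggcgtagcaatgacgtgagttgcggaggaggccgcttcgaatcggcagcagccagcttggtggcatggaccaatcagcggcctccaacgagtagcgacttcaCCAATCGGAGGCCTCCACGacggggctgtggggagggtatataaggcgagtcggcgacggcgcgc
The 10 members with a match for either motif had a median log2 difference of -0.09 for Instigator minus Matrigel, -0.05 for Non-instigator minus Matrigel and -0.06 for Instigator minus Non-instigator. The 17 members with a promoter entry and no match had medians of -0.14, -0.07 and -0.11 in the same order of comparisons. Without Instigator 4 and Matrigel 3, the arrays described next, these medians were -0.02, -0.01 and -0.02 with a match and -0.02, -0.02 and -0.02 with none.

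Before the groups are compared, 2 arrays need to be named. Instigator 4 had a beta-actin control 5' minus 3' signal of -3.41, where the other 13 lay between -0.81 and -0.51. Its Gapdh control gave -4.03, where the others lay between -1.16 and -0.73. It was the lowest of the 14 arrays for 22 of the 35 members (21.1% of all genes had their lowest value there) and the highest for 4. Matrigel 3 was the highest of 14 for 13 members, with 34% of all genes at their highest there, and its median log2 intensity was 7.18, against 6.90 to 7.01 elsewhere. The part of RNA quality and array level in the results below was not tested. Values without both arrays are given beside the main results.

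**Figure D1:**
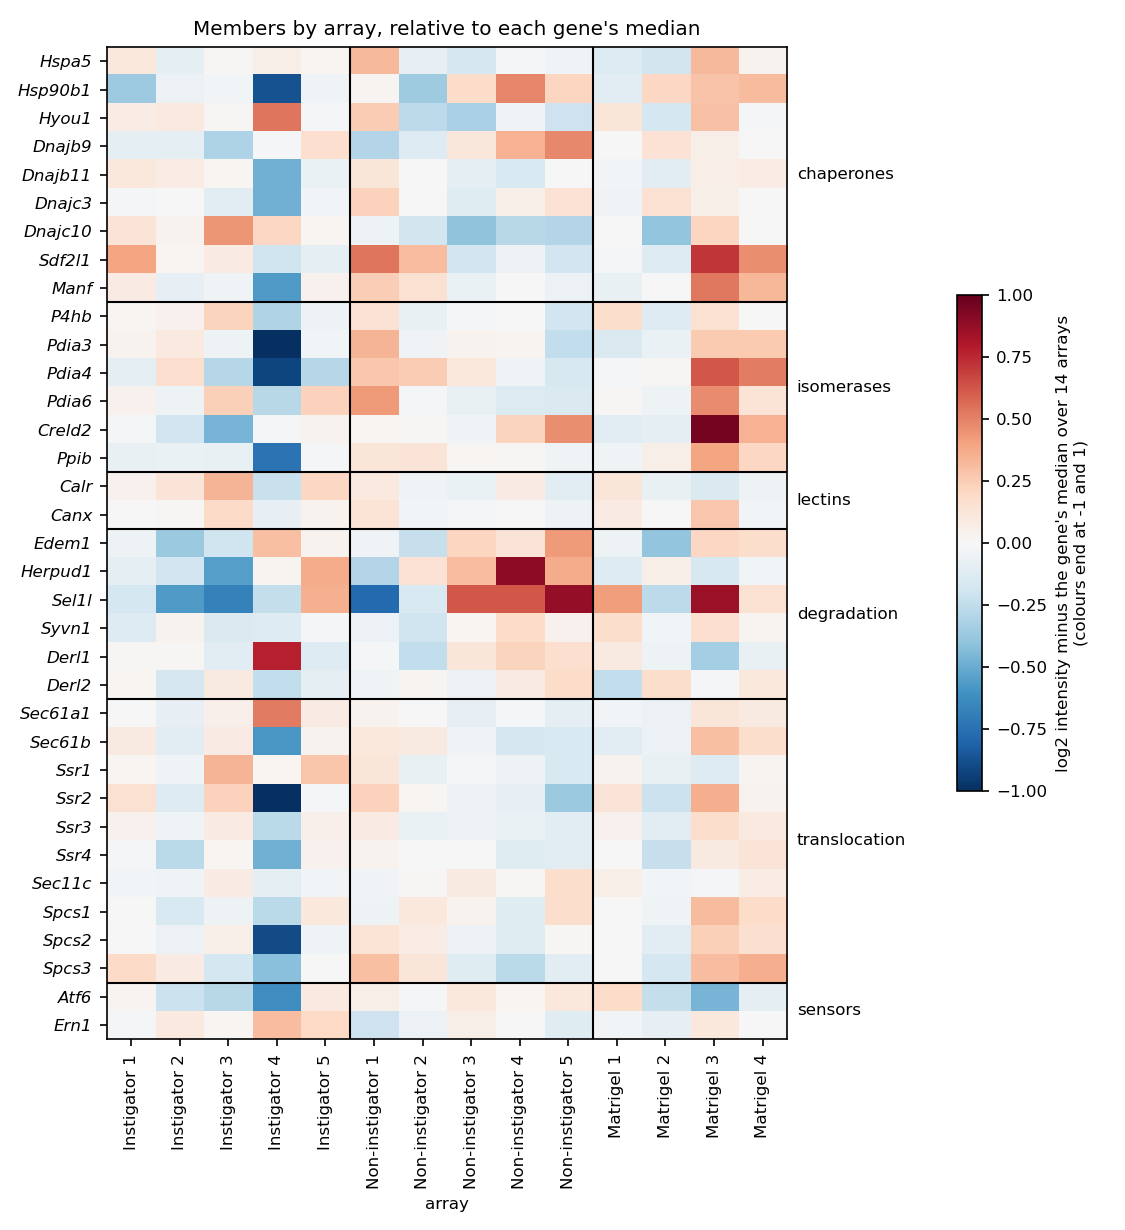
Log2 intensity of the 35 members (rows, in the order of their roles) on the 14 arrays (columns), as the difference from each gene's median over the arrays. Blue cells stack on Instigator 4, the lowest array for 22 members, and red cells on Matrigel 3, the highest for 13. Sel1l and Herpud1 vary among the Non-instigator arrays.

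Over the whole table, limma called 0 probe sets in any of the 3 comparisons at an adjusted p under 0.05 (0% called), and the smallest adjusted p was 0.439 for Instigator against Matrigel, 0.986 for Non-instigator against Matrigel and 0.813 for Instigator against Non-instigator. At an unadjusted p under 0.05 there were 2324, 477 and 1268 probe sets in these comparisons. No member therefore passed the test, and the values below are given as differences with intervals.

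The members as a set leaned slightly below 0 in all 3 comparisons. On the same arrays, all genes together also leaned below 0 in both comparisons with Matrigel. For Instigator minus Matrigel the median difference was -0.11, with 27 of 35 members below 0 (77.1%), against -0.02 and 54.1% over all genes. For Non-instigator minus Matrigel the median was -0.07 with 25 members below 0 (71.4%), against -0.04 and 61.7% over all genes. For Instigator minus Non-instigator it was -0.07 with 23 below 0 (65.7%), against 0.03 and 41.8%. Each pair of these comparisons shares a group of arrays, so they are not independent. With arrays centred on their median, the member median for Instigator minus Matrigel was -0.03. Without Instigator 4 and Matrigel 3, the median for Instigator minus Matrigel was -0.03 with 21 members below 0 (60.0%), against 0.03 and 41.0% over all genes. The median for Non-instigator minus Matrigel without both arrays was -0.02, with 23 members below 0 (65.7%), against 0.00 and 47.9% over all genes. For Instigator minus Non-instigator it was -0.02 with 19 below 0 (54.3%), against 0.02 and 42.1%.

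Few members were past an unadjusted limma p of 0.05. For Instigator against Matrigel these were 0 members higher and 3 lower, where 3.63% of all genes were higher and 5.16% lower at that p. For Non-instigator against Matrigel there were 0 members in either direction, against 0.791% of genes higher and 1.17% lower. For Instigator against Non-instigator there were 2 members higher and 1 lower, against 2.41% and 2.92% of genes. Without both arrays, 1 member, Dnajc10, was higher and 0 were lower for Instigator against Matrigel, against 3.72% of genes higher and 2.6% lower in the same fit. For Non-instigator against Matrigel there were again 0, against 1.21% and 0.637% of genes. For Instigator against Non-instigator 2 were higher, Dnajc10 and Calr, and 1 lower, Creld2, against 4.33% and 3.33% of genes. Hsp90b1 and Ern1, past that p in this comparison with all arrays, were not past it without both. Groups did not overlap in 0 members for Instigator against Matrigel (1.12% of genes lay wholly higher and 1.21% wholly lower) and in 0 for Non-instigator against Matrigel (0.347% and 0.403%). For Instigator against Non-instigator they did not overlap in 1 member, Dnajc10, which lay higher, where 0.71% of genes lay wholly higher and 0.436% wholly lower. These counts use each gene's brightest probe set. Of the 75 member probe sets, 3 lay wholly lower in Instigator than in Matrigel arrays, all dimmer ones, of Dnajc3 and Ppib. The same count over all probe sets is not given here.

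**Figure D2:**
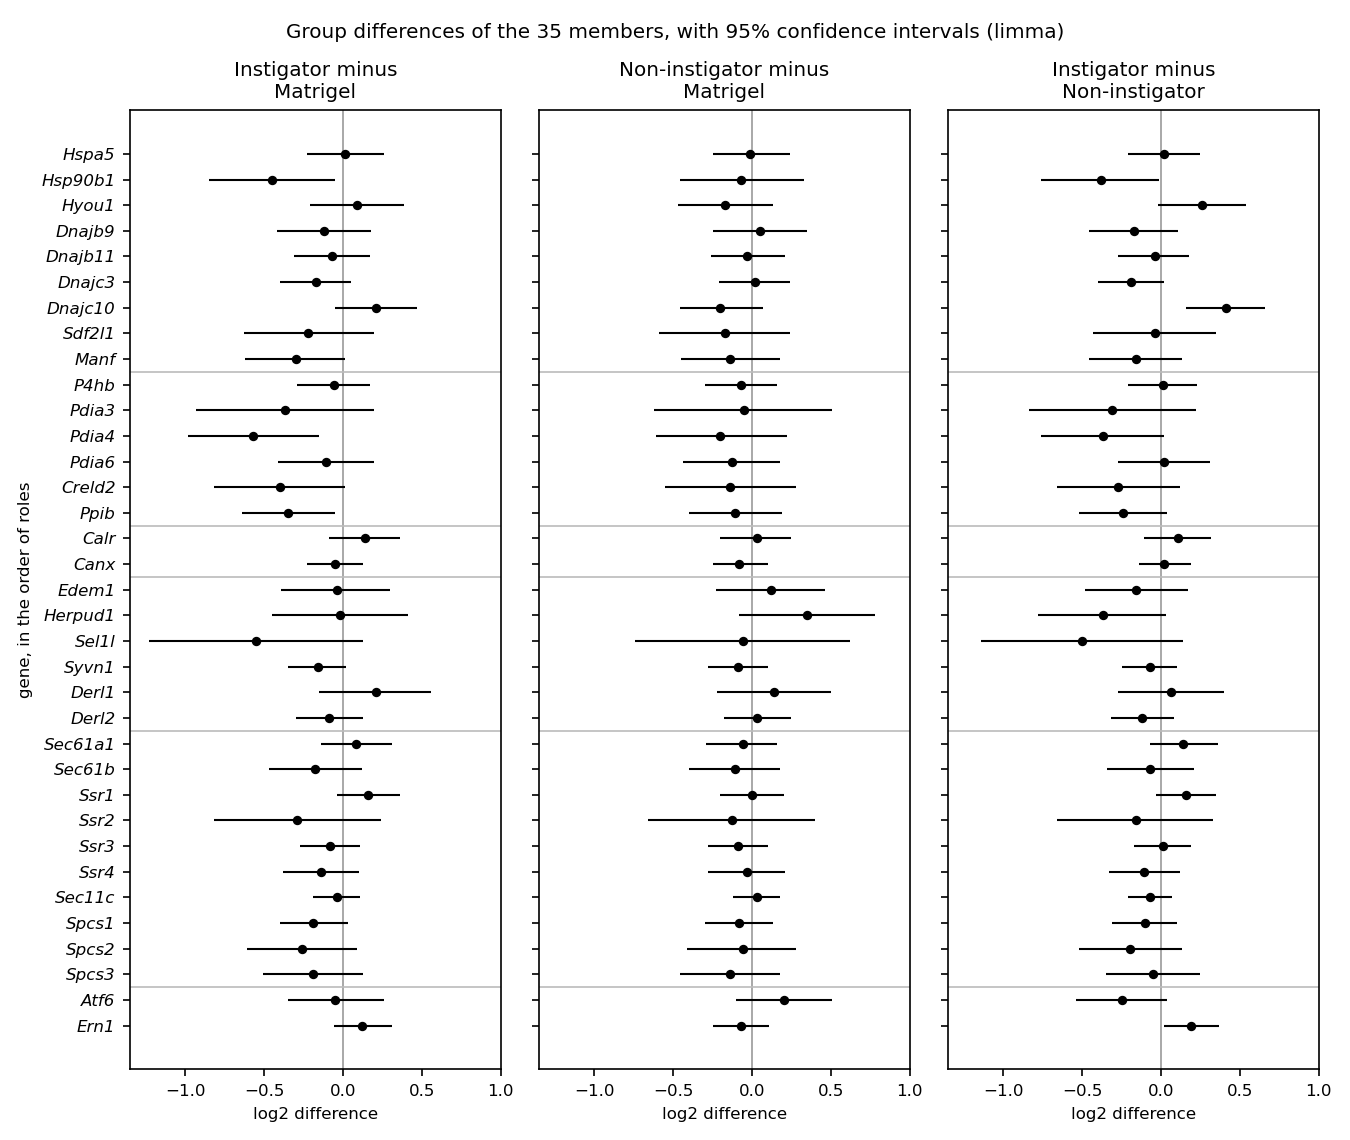
Log2 difference (x axis, with 95% confidence interval from limma) of each member (rows, in the order of their roles) for Instigator minus Matrigel, Non-instigator minus Matrigel and Instigator minus Non-instigator. Intervals that leave out 0 belong to Hsp90b1, Pdia4 and Ppib in the first panel and to Hsp90b1, Dnajc10 and Ern1 in the last.

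Among the 9 chaperones and their partners, Hspa5 (BiP), the ER's Hsp70 and a widely used marker of ER stress, had differences near 0 in all 3 comparisons. It lay at 11.96, 11.77, 11.87, 11.91 and 11.88 in the Instigator arrays, at 12.18, 11.77, 11.69, 11.84 and 11.82 in the Non-instigator arrays, and at 11.72, 11.67, 12.18 and 11.89 in the Matrigel arrays. The group means were 11.88 ± 0.07 for Instigator, 11.86 ± 0.19 for Non-instigator and 11.87 ± 0.23 for Matrigel (SD, n = 5, 5 and 4). The groups overlapped throughout, and Non-instigator 1 and Matrigel 3 were the highest arrays. The difference was 0.01 (95% interval -0.23 to 0.26) for Instigator minus Matrigel, -0.01 (-0.25 to 0.24) for Non-instigator minus Matrigel and 0.02 (-0.21 to 0.25) for Instigator minus Non-instigator. Leaving out both arrays gave 0.11, 0.10 and 0.01 in that order.

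Hsp90b1 (GRP94), the ER's Hsp90, had the largest difference of the chaperones for Instigator minus Matrigel. It lay at 10.74, 11.04, 11.08, 10.23 and 11.07 in Instigator arrays, at 11.13, 10.75, 11.29, 11.60 and 11.32 in Non-instigator arrays, and at 10.998, 11.31, 11.39 and 11.42 in Matrigel arrays. Instigator 4 was the lowest array of all, and the groups overlapped. The difference was -0.45 ± 0.19 (SE; 0.733-fold) for Instigator minus Matrigel (limma adjusted p = 0.449) and -0.38 ± 0.18 for Instigator minus Non-instigator (adjusted p = 0.813). Without both arrays these became -0.26 and -0.23. Its other probe set gave -0.31 for both comparisons, and -0.14 and -0.18 without both arrays.

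Dnajc10 (ERdj5), a disulphide reductase that helps clear misfolded proteins, was the member whose Instigator and Non-instigator arrays did not overlap. The Instigator arrays lay at 9.53, 9.44, 9.85, 9.61 and 9.42, and the Non-instigator arrays at 9.35, 9.22, 8.995, 9.13 and 9.11. The Matrigel arrays, at 9.41, 9.01, 9.61 and 9.40, overlapped both. The difference was 0.41 ± 0.12 (SE; 1.33-fold) for Instigator minus Non-instigator, with a limma adjusted p of 0.813. The other 2 probe sets gave 0.14 and -0.07, and the mean of the 3 gave 0.16. Without Instigator 4 and Matrigel 3 the difference was 0.40.

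The remaining 6 chaperones were Hyou1 (an ER Hsp110-type chaperone), the Hsp40 co-chaperones Dnajb9, Dnajb11 and Dnajc3, and Sdf2l1 and Manf, which are linked to BiP. Their Instigator minus Matrigel differences ran from -0.30 (Manf, SE 0.15) to 0.09 (Hyou1), and without both arrays from -0.13 (Dnajb9) to 0.07 (Hyou1), with Manf at -0.08. The median of all 9 chaperones was -0.12, and 0.00 without both arrays. Probe sets of 1 gene did not always point the same way. Hyou1 gave 0.09, -0.26 and -0.34 for that comparison, whereas Dnajc3 gave -0.17, -0.40, -0.41, -0.13 and -0.69, all 5 below 0. Without both arrays Hyou1 gave 0.07, -0.16 and -0.13, and Dnajc3 -0.08, -0.21, -0.18, -0.23 and -0.35.

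**Figure D3:**
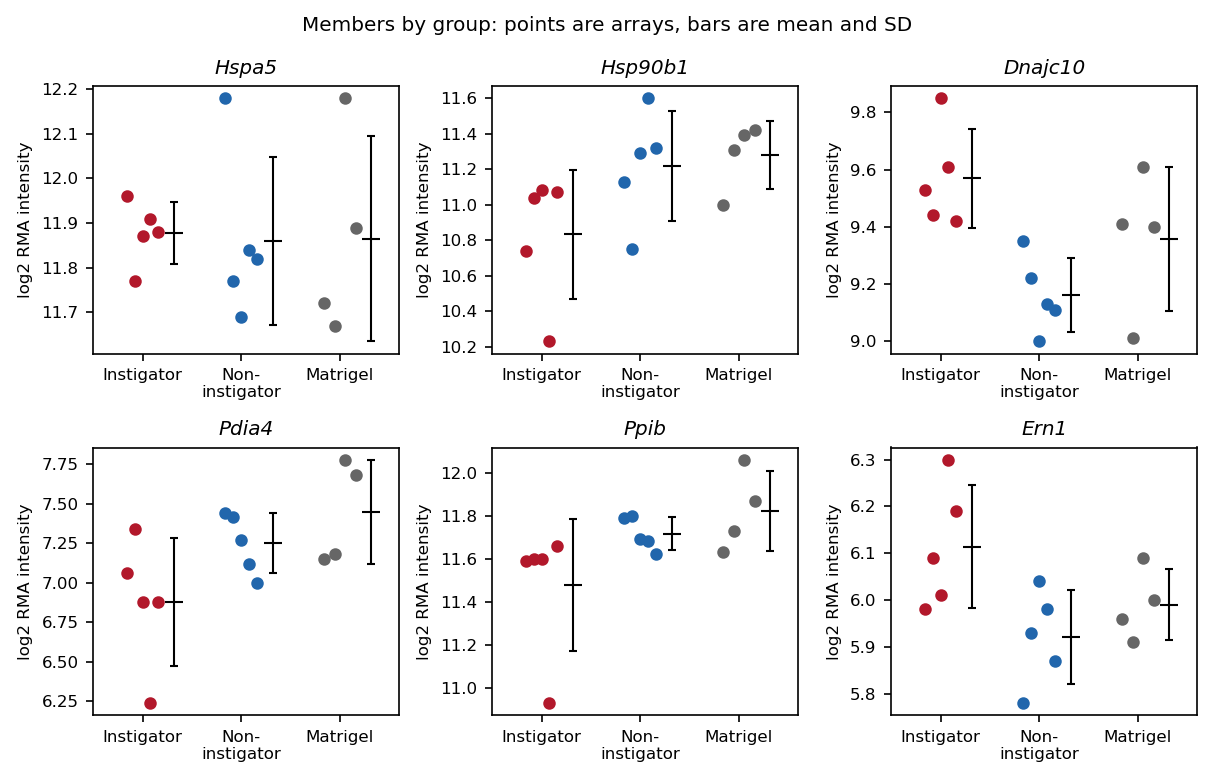
Log2 RMA intensity (y axis, not starting at 0) of 6 members in the Instigator, Non-instigator and Matrigel groups, with a point for each array and the mean ± SD beside it. Hspa5 sits at about the same level in all groups, Dnajc10 does not overlap between Instigator and Non-instigator, and the lowest points of Hsp90b1, Pdia4 and Ppib are Instigator 4.

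The 6 disulphide and proline isomerases had the lowest median of any role for Instigator minus Matrigel, -0.36, with 6 of 6 below 0. Their medians were -0.12 for Non-instigator minus Matrigel and -0.25 for Instigator minus Non-instigator, with 6 and 4 of 6 below 0. Instigator 4 was the lowest of 14 arrays for 5 of these 6, against 21.1% of all genes. Without both arrays the medians were -0.07, -0.02 and -0.06, with 4 of 6 below 0 in each comparison. Pdia4 (ERp72), a thioredoxin-fold isomerase, lay at 7.06, 7.34, 6.88, 6.24 and 6.88 in Instigator arrays and at 7.15, 7.18, 7.78 and 7.68 in Matrigel arrays. The Non-instigator arrays lay between 7.005 and 7.44. Its Instigator minus Matrigel difference was -0.57 ± 0.19 (SE; 0.675-fold, adjusted p = 0.439). Without both arrays it was -0.30. Its other, dimmer probe set gave -0.17, and 0.01 without both arrays. Ppib (cyclophilin B), a proline isomerase, lay at 11.59, 11.60, 11.60, 10.93 and 11.66 in Instigator arrays and at 11.63, 11.73, 12.06 and 11.87 in Matrigel arrays. Its Non-instigator arrays lay between 11.62 and 11.80. For Instigator minus Matrigel it differed by -0.35 ± 0.14 (SE, adjusted p = 0.442), and by -0.13 without both arrays. Creld2, an ER-resident protein grouped with them, differed by -0.40 ± 0.19, and the isomerases Pdia3, Pdia6 and P4hb by -0.37, -0.11 and -0.06. Without both arrays Creld2 differed by -0.21, Pdia3 by 0.00, Pdia6 by 0.08 and P4hb by 0.05, so the value of Pdia3 was near 0 and the signs of Pdia6 and P4hb turned. Pdia3 lay at 9.05 on Instigator 4 and between 10.31 and 10.89 on the other 13 arrays.

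The lectin chaperones Calr (calreticulin) and Canx (calnexin) hold glycoproteins in the folding cycle, and the differences of their brightest probe sets were at most 0.14 in size. Calr lay at 12.04, 12.13, 12.35, 11.78 and 12.21 in Instigator arrays, at 12.10, 11.96, 11.94, 12.09 and 11.89 in Non-instigator arrays, and at 12.13, 11.93, 11.86 and 11.95 in Matrigel arrays. The difference was 0.14 (95% interval -0.09 to 0.36) for Instigator minus Matrigel and 0.11 (-0.11 to 0.32) for Instigator minus Non-instigator, and 0.18 and 0.19 without both arrays. Canx had a within-group SD of 0.10, among the smallest of the members, and a difference of -0.05 for Instigator minus Matrigel. Its 2 dimmer probe sets gave -0.61 and 0.07 for that comparison. Leaving out both arrays, the 3 probe sets gave 0.04, -0.21 and 0.10.

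The 6 ER-associated degradation genes differed widely in how much they varied among samples, with within-group SDs from 0.11 to 0.54. Sel1l, the scaffold of the degradation complex, had the largest within-group SD of the 35 members, 0.54, and Herpud1, a membrane partner of that complex, had 0.33, against a member median of 0.21 and 0.19 over all genes. Sel1l lay at 8.56, 8.18, 8.07, 8.50 and 9.09 in Instigator arrays, at 7.96, 8.59, 9.36, 9.36 and 9.62 in Non-instigator arrays, and at 9.16, 8.48, 9.60 and 8.89 in Matrigel arrays. Non-instigator arrays 3 to 5 were therefore high and Non-instigator 1 was the lowest of all 14. The Instigator minus Matrigel difference was -0.55 ± 0.32 (SE, adjusted p = 0.552) on the brightest probe set, and the others gave -0.69, -0.99 and -0.22. Without both arrays the 4 probe sets gave -0.37, -0.43, -0.61 and -0.17.

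Herpud1 lay at 9.54, 9.44, 9.08, 9.66 and 10.001 in Instigator arrays, at 9.34, 9.77, 9.94, 10.53 and 10.001 in Non-instigator arrays, and at 9.51, 9.69, 9.47 and 9.60 in Matrigel arrays. Its difference was 0.35 ± 0.20 (SE, adjusted p = 0.986) for Non-instigator minus Matrigel and -0.37 ± 0.19 (adjusted p = 0.813) for Instigator minus Non-instigator. Without both arrays these were 0.32 and -0.40. With Instigator 5 counted as Non-instigator the difference from Non-instigator was -0.50. Syvn1 (the ubiquitin ligase HRD1) and Edem1 (which recognises trimmed glycans) differed by -0.16 and -0.04 for Instigator minus Matrigel, Derl1 by 0.21 and Derl2 by -0.09. The 4 probe sets of Derl1 gave 0.21, -0.08, 0.39 and -0.39, and -0.04, -0.06, 0.10 and -0.18 without both arrays. Without both arrays the role's 6 genes were all below 0 for Instigator minus Matrigel and for Instigator minus Non-instigator (medians -0.07 and -0.17), against 5 of 6 in each with all arrays (medians -0.06 and -0.14).

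Markers of plasma cells varied over the same arrays. Of 11 such markers 10 were measured, and Mzb1 was not. Their summed intensity was 8067 to 11832 in Instigator, 7352 to 14491 in Non-instigator and 10643 to 13715 in Matrigel arrays. Their median difference was -0.32 for Instigator minus Matrigel, with 9 of 10 below 0, and -0.35 for Instigator minus Non-instigator. Without both arrays these medians were -0.21, with 9 of 10 below 0, and -0.35. By array, the marker median was -0.37, 0.02, 0.19, 0.20 and 0.36 in Non-instigator arrays 1 to 5, relative to each gene's median over the arrays, and the median of the degradation members was -0.05, -0.18, 0.16, 0.20 and 0.28. Sdc1, the plasma cell surface proteoglycan, lay wholly lower in Instigator than in Matrigel arrays (-0.94 ± 0.36, SE, adjusted p = 0.442, and -0.66 without both arrays). The list also holds Xbp1, Derl3 and Edem2, which belong to the ER machinery itself, and the part of plasma cells in the degradation values was not tested.

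The T cell list (10 genes) had medians of -0.32 for Instigator minus Matrigel and -0.32 for Instigator minus Non-instigator, with 10 of 10 below 0 in both. The B-lineage list (12 genes) had -0.52 and -0.33. Without both arrays the medians were -0.31 and -0.36 for the T cell list and -0.52 and -0.33 for the B-lineage list. The 8 plasmacytoid dendritic cell markers had a median of -0.64 for Instigator minus Matrigel, and -0.48 without both arrays. In Non-instigator arrays 1 to 5, the list median by array was -0.44, 0.09, 0.01, 0.64 and 0.56 for T cell markers. For B-lineage markers it was -0.75, -0.01, -0.01, 0.03 and 0.56. For plasmacytoid dendritic cell markers it was -0.60, 0.01, -0.05, -0.14 and 0.27. Low values on Non-instigator 1 and high values on Non-instigator 5 were thus not particular to the plasma cell markers. None of these lists held a gene that passed limma's adjusted p.

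**Figure D4:**
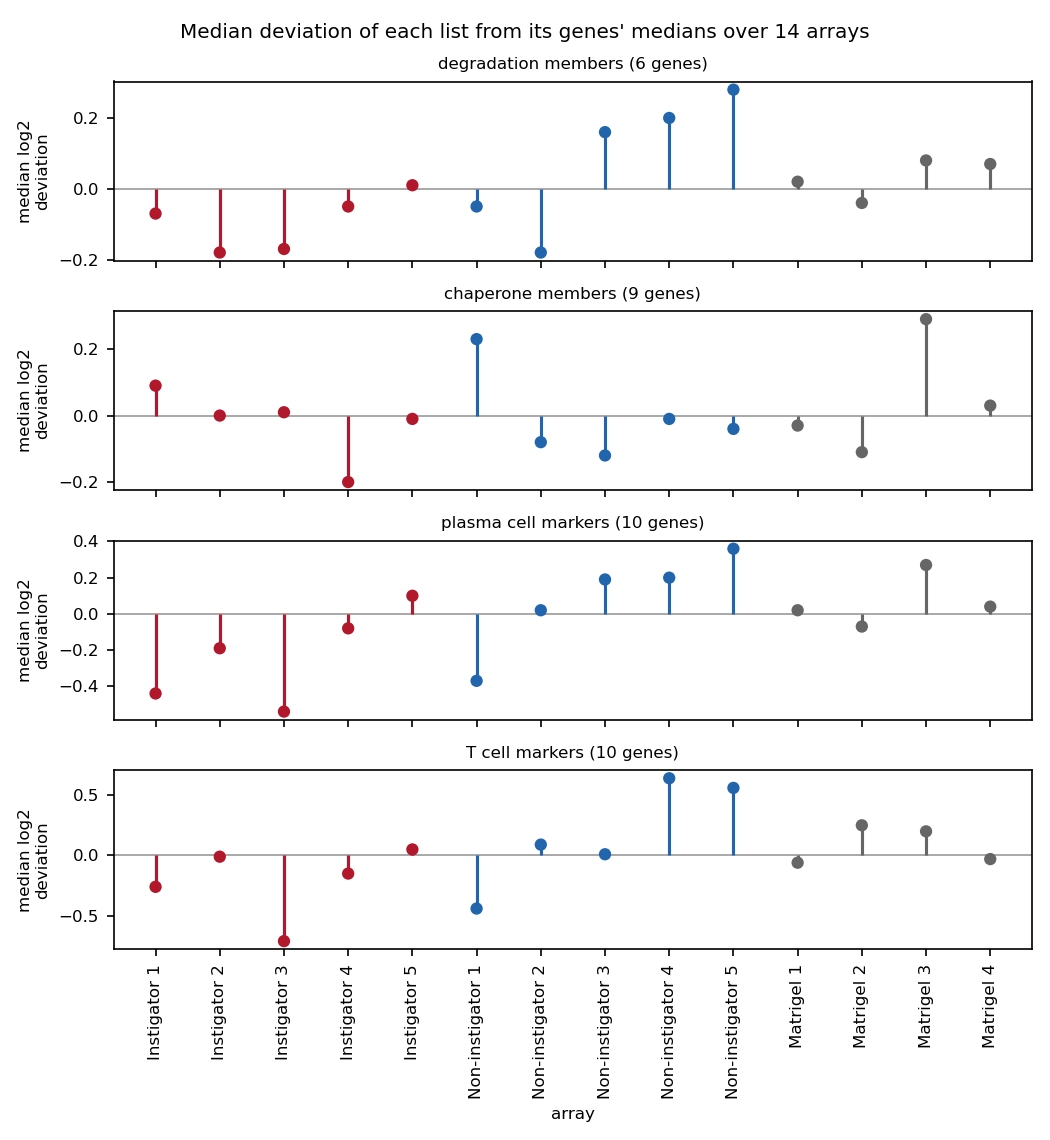
Median log2 deviation of 4 gene lists on each array (x axis), relative to each gene's median over the 14 arrays: degradation members, chaperone members, plasma cell markers and T cell markers, with Instigator in red, Non-instigator in blue and Matrigel in grey. Non-instigator 3 to 5 are high for the degradation members and for the plasma cell markers, and Non-instigator 4 and 5 for the T cell markers. The y scales differ between panels.

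The 10 translocation and signal peptide genes cover the Sec61 channel (Sec61a1, Sec61b), the translocon-associated proteins (Ssr1 to Ssr4) and the signal peptidase complex (Sec11c, Spcs1 to Spcs3). Their median was -0.16 for Instigator minus Matrigel, with 8 of 10 below 0, and Instigator 4 was the lowest array for 8 of 10. Their median without both arrays was -0.01, with 5 of 10 below 0. Sec11c had the smallest within-group SD of all members, 0.07, and a difference of -0.04 for Instigator minus Matrigel. Spcs1 differed by -0.19 ± 0.10 (SE) and Ssr1 by 0.16 ± 0.09, and without both arrays by -0.07 and 0.15. The other 2 probe sets of Ssr1 gave -0.16 and -0.00, and -0.11 and 0.04 without both arrays. Those of Spcs1 gave -0.23 and -0.47, and -0.09 and -0.30 without both arrays. Sec61a1 had 6 probe sets, from -0.57 to 0.08, and from -0.26 to 0.02 without both arrays. The gene-level counts hide part of this disagreement. Over the 75 member probe sets, 57 were below 0 for Instigator minus Matrigel. The share of all probe sets below 0 in that fit is not given here. At an unadjusted p under 0.05 there were 1 higher and 15 lower, against 3.27% higher and 7% lower of all probe sets. Without both arrays 47 were below 0 (62.7%), against 43.3% of all probe sets. At that p 2 were higher (2.67%) and 4 lower (5.33%), against 3.47% higher and 3.39% lower of all probe sets.

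Of the sensors, Atf6 lay at 8.10, 7.86, 7.79, 7.45 and 8.17 in Instigator arrays, at 8.14, 8.05, 8.18, 8.10 and 8.18 in Non-instigator arrays, and at 8.26, 7.84, 7.61 and 7.98 in Matrigel arrays. Instigator 4 and Matrigel 3 were its lowest arrays. Its difference was -0.25 ± 0.14 (SE, adjusted p = 0.813) for Instigator minus Non-instigator, -0.33 with Instigator 5 moved and -0.15 without Instigator 4 and Matrigel 3. Ern1, a kinase and ribonuclease, lay at 5.98, 6.09, 6.01, 6.30 and 6.19 in Instigator arrays, at 5.78, 5.93, 6.04, 5.98 and 5.87 in Non-instigator arrays, and at 5.96, 5.91, 6.09 and 5.995 in Matrigel arrays. The difference for Instigator minus Non-instigator was 0.19 ± 0.08 (SE, adjusted p = 0.813), 0.13 with Instigator 5 moved and 0.15 without both arrays. All these Ern1 values lay below the median log2 intensity of every array. Its 2 dimmer probe sets gave 0.06 and 0.17 for that comparison. For Instigator minus Matrigel the 3 probe sets gave 0.12, -0.12 and 0.11, and 0.11, 0.09 and 0.07 without both arrays.

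No gene of the wider pathway passed limma's adjusted p. Of 18 unfolded protein response regulators 16 were measured, with medians of -0.13, 0.04 and -0.03 in the order Instigator minus Matrigel, Non-instigator minus Matrigel, Instigator minus Non-instigator. Without both arrays these were -0.05, 0.07 and -0.07. Mbtps1, the protease that releases active ATF6, differed by 0.44 ± 0.15 (SE, adjusted p = 0.439) for Instigator minus Matrigel, and by 0.18 without both arrays. The stress-induced factor Ddit3 (CHOP) differed by -0.34 ± 0.12 (adjusted p = 0.813) and Bcl2l11 (BIM) by -0.59 ± 0.23 for Instigator minus Non-instigator. Without both arrays these were -0.25 and -0.59. The other redox and isomerase genes, of which 14 of 15 were measured, had a median of -0.17 for Instigator minus Matrigel with 13 of 14 below 0, and of -0.01 with 7 of 14 below 0 without both arrays. In the other signal recognition list, 12 of 16 measured, Sec62 and Sec63, partners of the channel, differed by -0.36 ± 0.11 and -0.39 ± 0.12 for Instigator minus Matrigel (both adjusted p = 0.439), and by -0.25 and -0.27 without both arrays. The 17 N-glycosylation genes and 17 of 18 cytosolic chaperones had medians of -0.01 and 0.02 for the same comparison, and the 18 export genes and 15 further degradation genes had -0.07 and -0.11. Without both arrays these 4 medians were 0.01, 0.02, -0.02 and -0.07.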

How the data were processed

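The authors computed expression values by RMA with affy and R 2.11.0, per the submitters' processing notes. The deposited intensity values are linear, with a value for each probe set and array, and log2 was taken of them here with no further normalization. Per the labels, Qiagen kits were used for RNA and NuGen Ovation Biotin for labelling. RMA options and genome build: not given in the sources used here. After 64 control probe sets were left out, 22626 remained. Of these 20380 carry 1 gene symbol, 691 several and 1555 none. Arrays were grouped by title.

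All 14 arrays entered 1 limma 3.58.1 fit (R 4.3.3) with group as the factor, with Benjamini-Hochberg adjustment across all 22626 probe sets and a threshold of 0.05. The code of the fit was tried on simulated data, independent normal values with known shifts. Those data held no array like Instigator 4 or Matrigel 3, so they say nothing on how such arrays affect the results. Median intensity per array was 119 to 145, and the number of arrays limits the precision. Promoter sequences came from RefSeq, build GRCm38.p6. Plots used matplotlib 3.10.9 under Python 3.11.15.

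The members and gene lists were chosen with earlier results of these data known. Hspa5, Hsp90b1, Calr, Atf6 and Ern1 are always named, with the 10 members of smallest p in each comparison, up to 3 genes of smallest p from each other list and probe sets that disagree; other members are described within their roles. The alternatives tried were other fits, scalings, filters and probe set rules, a replicate block, each array left out, Instigator 4 and Matrigel 3 left out together, and Instigator 5 moved. The count of members below 0 was added after seeing the data.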

Additional observations from a re-analysis of the deposited data

Results flagged for a closer look

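Among the 60 combinations of a named member and a group tested for an array lying far from the others of its group, 6 stood out. The limit of the rule is set so that chance alone gives about 1 in 20. Members on the same array are not independent, and members that are not named were not put to this rule. On Instigator 4, Ppib lay at 10.93, against 11.59 to 11.66 on the other Instigator arrays. Dnajc3 lay at 9.86 there, against 10.22 to 10.34, and Manf at 9.93, against 10.41 to 10.58. Hyou1 lay higher on that array, at 10.02, against 9.47 to 9.58. Among the members not put to the rule, Pdia3 lay at 9.05 on Instigator 4, against 10.50 to 10.65 on the other Instigator arrays. Ssr2 lay at 8.76 there, against 9.92 to 10.28, and Spcs2 at 9.98, against 10.81 to 10.93. Derl1 lay higher, at 11.08, against 10.17 to 10.31, and so did Sec61a1, at 11.36, against 10.76 to 10.92. Instigator 4 also had the actin control 5' minus 3' signal of -3.41, whose part in these values was not tested. On Non-instigator 1, Canx lay at 11.37, against 11.19 to 11.24 on the other Non-instigator arrays, and Ssr3 at 11.80, against 11.61 to 11.67.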

How the results depend on the processing

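With array weights, the member median for Instigator minus Matrigel was 0.00841, against -0.1054 as reported, and 17 members were below 0, against 27. With Instigator 5 moved that median was -0.154. The count of members at an unadjusted limma p under 0.05 for that comparison, reported as 3, was 5 with arrays centred on their median, 6 with the replicate block, 1 without Instigator 4 and Matrigel 3, 7 with Instigator 5 moved and 8 with probe sets averaged per gene. Omitting 1 array at a time gave 1 (without Matrigel 4) to 7 (without Instigator 5), with 5 without Matrigel 1 and 6 without Matrigel 2. Moving Instigator 5 brought Sel1l, Creld2, Manf and Spcs1 under an unadjusted limma p of 0.05 for Instigator against Matrigel. Their differences then were -0.71, -0.45, -0.34 and -0.23. For Instigator against Non-instigator the count, reported as 3, was 7 with array weights and 6 with Instigator 5 moved, and 2 to 5 with 1 array left out, the 5 without Non-instigator 1. For Non-instigator against Matrigel, reported as 0, it was 1 with array weights and 0 to 1 with 1 array left out, the 1 without Matrigel 1, Matrigel 2 or Non-instigator 1. Over the whole table, Instigator against Matrigel gave 1 called probe set, against 0, without Instigator 4, alone or with Matrigel 3, and 0 to 1 with 1 array left out. Of 40 named differences, 9 changed sign under some alternative, and 0 of these were past an unadjusted p of 0.05. Same-numbered arrays of 2 groups had correlations of their deviations from -0.20 to 0.27. Arrays of different numbers were not compared in this way, so whether the numbers pair the arrays was not tested. The cause of these changes was not tested. With 4 or 5 arrays a group, differences of the size seen here carry intervals wide enough to include 0 for most members.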

Other observations

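Lists outside the ER machinery were measured on the same arrays, and no gene of them passed limma's adjusted p. Of the 14 neutrophil and granulocyte precursor markers, 13 lay above 0 for Instigator minus Matrigel, with a median difference of 0.19. Of the 35 ER members, 27 lay below 0. Without Instigator 4 and Matrigel 3, 14 of the neutrophil markers lay above 0, with a median of 0.16, and 21 ER members lay below 0. Over all genes the median for this comparison was -0.02, with 54.1% below 0. Without both arrays it was 0.03, with 41% below 0. Mmp8, a neutrophil collagenase, lay wholly higher in Instigator than in Matrigel arrays (0.44 ± 0.14, SE, adjusted p = 0.439). It differed by 0.37 for Non-instigator minus Matrigel. Without both arrays these were 0.36 and 0.27. The 14 proliferation genes had a median of 0.13 for Instigator minus Matrigel, with 12 above 0, and of 0.11 with 12 above 0 without both arrays. Mcm2, a subunit of the replicative helicase, differed by 0.61 ± 0.21 (SE, adjusted p = 0.813) for Instigator minus Non-instigator, and by 0.40 without Instigator 4 and Matrigel 3. The 12 mesenchymal and endothelial markers had a median of -0.01 for Instigator minus Matrigel. Among them Sparc, a matrix protein, lay wholly lower in Instigator arrays (-0.82 ± 0.20, SE, adjusted p = 0.439), and differed by -0.76 without both arrays.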
